A study of Homo sapiens with 4 samples.

Results

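The BCL2 family decides whether a cell opens the outer membrane of its mitochondria and dies by apoptosis. Anti-apoptotic members hold the pore-forming effectors in check, and BH3-only members release that check or activate the effectors directly, through a short helix called the BH3 domain. Cancer cells commonly survive by keeping MCL1 or BCL-XL, the long product of BCL2L1, at a high level. The genes described here are the rows of the gene count table named BCL2, BCL2L1 and MCL1 (anti-apoptotic), BAX and BAK1 (effectors), and BID, BAD, BBC3, PMAIP1 and BCL2L11 (BH3-only). These 10 genes are among 60544 in the table, and all 10 passed the low-count filter that left 16802 genes for testing.

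Poly(A) RNA was sequenced from PC3, an established human prostate cancer line, in 2 groups of 2 libraries. The control libraries are labelled shNC. The other libraries are labelled sh812, which was read as the METTL3 knockdown arm of the stated design because it is the only other label. METTL3 carries the catalytic activity of the methyltransferase that adds N6-methyladenosine (m6A) to messenger RNA. The labels name 1 hairpin per arm and do not say whether cells were pooled or cloned, or whether replicates were separate cultures, so p-values measure the spread between these libraries, which may be technical.

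Total counts ran from 31450648 to 37041330 per library. METTL3 had 1682 and 1379 counts in shNC and 269 and 313 in sh812. After scaling to library sizes adjusted by the trimmed mean of M values (TMM), which gives the CPM values used below, 18.7% of the control level was left. The epithelial keratins KRT8, KRT18 and KRT19 were abundant. With the adhesion gene CDH1, these 4 epithelial markers summed to 746 and 844 CPM in shNC and to 858 and 916 in sh812, with no overlap between the groups. Among them KRT18 rose, from 154 ± 21.4 to 189.8 ± 5.81 CPM, and CDH1 rose from 10.8 ± 0.309 to 16.04 ± 2.30 CPM (SD, n = 2; edgeR adjusted p-values 0.00793 and 0.00511). The prostate antigen gene KLK3 had 0 counts in all libraries, where a count of 0 allows up to 3. Of the leukocyte markers, CD3E was at 0, PTPRC had 12 to 32 counts and CD14 had 8 to 10 counts per library. The 5 fibroblast and endothelial markers COL1A1, COL3A1, DCN, PECAM1 and CDH5 summed to 65.1 and 67.8 CPM in shNC and to 64.0 and 74.9 in sh812, with CDH5 at 0 to 6 counts. Within that list PECAM1 rose, from 23.7 ± 0.0908 to 35.7 ± 3.96 CPM, and COL3A1 fell, from 3.44 ± 0.726 to 1.20 ± 0.116 CPM (SD, n = 2; edgeR adjusted p-values 0.000222 and 0.00131). Their part in the results was not tested. In bulk RNA, fewer cells of a type and less RNA per cell cannot be told apart.

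The BH3 core is what the 10 members share, and its coding sequence is shown for some of them and for the relatives BMF and BIK. Each line gives 33 coding bases from the principal GENCODE 29 transcript (GRCh38), 5′ to 3′ on the coding strand. The capitals mark the codons for the leucine, the small residue 4 codons later and the aspartate that follows it.
BID: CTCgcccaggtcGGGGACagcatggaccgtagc
BAX: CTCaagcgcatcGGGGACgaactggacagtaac
BAK1: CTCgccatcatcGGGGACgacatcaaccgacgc
BCL2L1: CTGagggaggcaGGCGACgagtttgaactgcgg
MCL1: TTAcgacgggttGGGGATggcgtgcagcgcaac
PMAIP1: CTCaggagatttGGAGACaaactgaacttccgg
BMF: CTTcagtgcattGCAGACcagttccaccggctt
BIK: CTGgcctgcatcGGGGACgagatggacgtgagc
The pattern was found in all 10 members. The small residue is glycine in 8 of them, serine in BAD and alanine in BBC3. Among the other family genes described below, the pattern was not found in BCL2A1 and BCL2L12, which were called. Nor was it found in BCL2L2, BCL2L10, BCL2L13 and BCL2L2-PABPN1. The search required leucine, then glycine, alanine or serine, then aspartate at these places. A BH3 domain with another residue there would be missed, so a missing pattern is not a missing domain. Over the 45 pairs of members, from 12 to 23 of the 33 bases were identical, with BAK1 and BID the closest pair.

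The members differed far more from each other than between the groups. Per kilobase of annotated exon, MCL1 was the most abundant in shNC at 86.9 ± 0.947 CPM per kb and BCL2 the least at 0.209 ± 0.0337 CPM per kb (SD, n = 2), a ratio of 415. BCL2L1 came second at 72.8 ± 3.21 CPM per kb, followed by PMAIP1 (31.3 ± 0.996), BAK1 (27.5 ± 1.63), BAX (16.5 ± 0.634), BAD (13.1 ± 1.46), BID (9.02 ± 0.0285), BCL2L11 (2.17 ± 0.00249) and BBC3 (0.545 ± 0.102; SD, n = 2). MCL1 and BCL2L1 had overlapping ranges over the 4 libraries, and no other neighbours in this order did. The order was the same in sh812 with this length. MCL1 and BCL2L1 lay at percentiles 97.2 and 96.6 of level per kb among the tested genes with a length, and BCL2 at 10.2. When the principal transcript was used for length in place of all exons, BAX moved from place 5 to place 3, at 53.9 CPM per kb. MCL1 and BCL2 were still first and last in shNC, at 96.6 and 0.767 CPM per kb, but their ratio was 126 with this length, and BBC3 stood next above BCL2 at 0.942 CPM per kb.

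**Figure D1:**
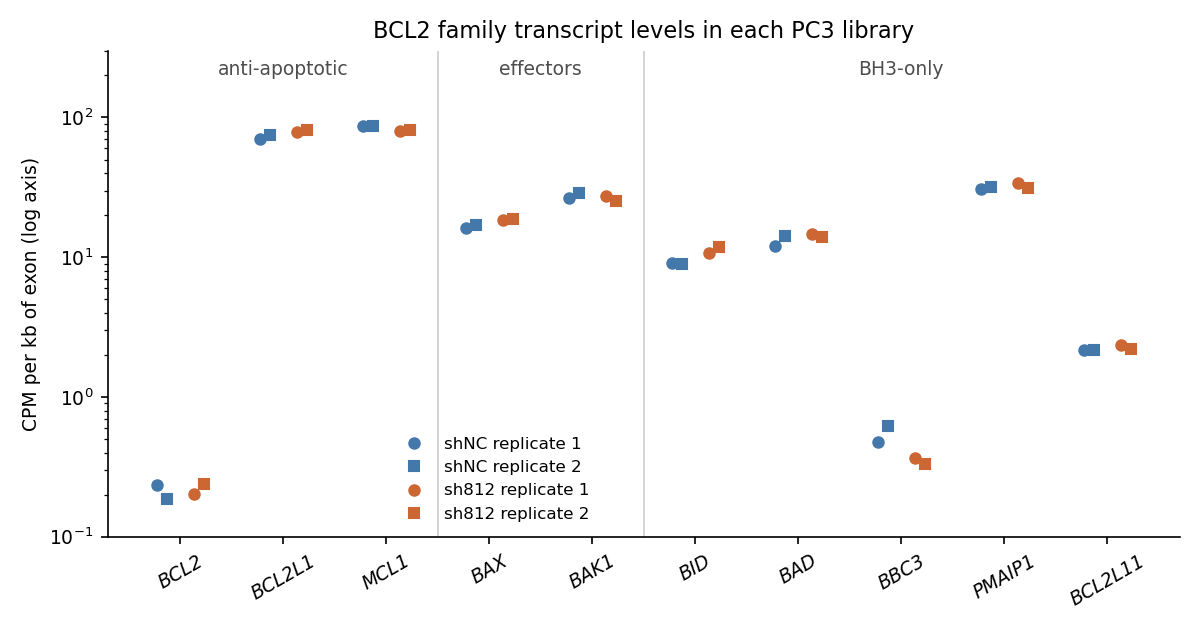
Level of each BCL2 family member, as CPM per kb of annotated exon on a log axis, in the 4 PC3 libraries (blue shNC, orange sh812; circles replicate 1, squares replicate 2). The 4 points of a gene lie close together, while MCL1 (86.9 CPM per kb in shNC) and BCL2 (0.209) stand at opposite ends.

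Against this range, 1 of the 10 members changed between sh812 and shNC. BID rose and 0 fell, at a threshold of 0.05 for the adjusted p of the quasi-likelihood test in edgeR. Over all tested genes 10.8% were called in either direction, 5.43% higher and 5.42% lower, so the members' share of 10% is near the background. At an unadjusted p under 0.05 in edgeR there were 3 members of 10, against 4161 of all 16802 tested genes. A fitted change above 0 was found in 7 members, against 8232 of the 16802. Later counts at this unadjusted p in edgeR with all libraries have the same background. The median log2 fold change of the members was 0.069 and that of all tested genes -0.0056. With library size alone as the scaling these were 0.024 and -0.050. In 6 of the 10 members both libraries of one group lay above both of the other, against 53.6% of all tested genes.

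BID encodes a BH3-only protein that caspase-8 cuts to link death receptors to mitochondria. Its GENCODE 29 model spans 17734138 to 17774770 on chromosome 22 (minus strand), with no other annotated exon over it. BID had 40.2 and 40.0 CPM in shNC and 47.6 and 52.2 CPM in sh812. Both sh812 libraries were above both shNC libraries, and the shNC values were nearly equal. The log2 fold change was 0.32 (SE 0.08, 95% interval 0.15 to 0.48; adjusted p = 0.0125 in edgeR), or 1.24 times the control level. That change is larger in size than those of 73.8% of tested genes and close to the median size of 0.33 among called genes. Without sh812 replicate 2 the log2 fold change was 0.25 and the adjusted p 0.262 in edgeR, with 1 of the 10 members at an unadjusted p under 0.05.

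The other BH3-only members did not pass the test. PMAIP1 encodes NOXA, which binds MCL1 preferentially, and had 68.4 and 71.6 CPM in shNC and 75.4 and 70.1 in sh812, so that the groups overlapped. BCL2L11 encodes BIM, which binds all the anti-apoptotic proteins, and had 14.5 and 14.5 CPM in shNC and 15.7 and 14.8 in sh812. These 2 had log2 fold changes of 0.06 (95% interval -0.09 to 0.20) and 0.08 (-0.16 to 0.31); their adjusted p-values were 0.692 and 0.754 (edgeR). BAD, a BH3-only protein held inactive by growth factor kinases, had 20.6 and 24.1 CPM in shNC and 24.9 and 23.8 in sh812 (log2 fold change 0.12, adjusted p = 0.506 in edgeR). GPR137 overlaps BAD on the opposite strand in the annotation, as MIR4435-2HG overlaps BCL2L11, and whether counting used strand is not given in the sources used here. BCL2, BAX, BID and PMAIP1 have no exon of another gene over theirs.

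BBC3 encodes PUMA, a potent BH3-only protein. It was low, with 57 and 62 counts in shNC and 41 and 38 in sh812. In CPM it was at 1.50 and 1.96 in shNC and at 1.17 and 1.06 in sh812, and the groups did not overlap. The log2 fold change of -0.63 (SE 0.36) was the largest in size among the members, but its 95% interval ran from -1.38 to 0.12 and its adjusted p was 0.299 in edgeR. MIR3191 overlaps exons of BBC3 on the same strand in the annotation, and MIR3190 on the opposite one. At this count neither a fall below 0.5 of the control level nor the absence of a fall could be told from the spread.

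Among the anti-apoptotic genes 0 of 3 were called with edgeR, DESeq2 or limma-voom, and 1 had an unadjusted p under 0.05 in edgeR. DESeq2 gave BCL2 no adjusted p, so BCL2 could not be called there. MCL1, a short-lived guardian protein, had 377 and 383 CPM in shNC and 348 and 356 in sh812. BCL2L1 had 234 and 249 CPM in shNC and 262 and 268 in sh812. The 2 most abundant members thus lay on opposite sides, MCL1 lower and BCL2L1 higher in both sh812 libraries. MCL1 had a log2 fold change of -0.11 (95% interval -0.23 to 0.01; adjusted p = 0.226 in edgeR). BCL2L1 had one of 0.14 (95% interval 0.01 to 0.26; adjusted p = 0.150 in edgeR). Without shNC replicate 2 the BCL2L1 value was 0.19 with an adjusted p of 0.00405 in edgeR, so that call turns on 1 control library. In the annotation ABALON overlaps BCL2L1 on the opposite strand, and ADAMTSL4-AS1 overlaps exons of MCL1 on the same strand.

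BCL2, the founding member of the family, had 104 and 69 counts in shNC and 83 and 100 in sh812. Its groups overlapped, at 2.74 and 2.18 CPM in shNC and 2.36 and 2.79 CPM in sh812, and its log2 fold change was 0.06 (95% interval -0.48 to 0.61; adjusted p = 0.921 in edgeR). BCL2 made up 0.114% to 0.148% of the summed anti-apoptotic level per kb in the 4 libraries. MCL1 made up 54.9% and 53.8% of that sum in shNC and 50.1% and 50.1% in sh812, and BCL2L1 nearly all of the rest. These shares depend on the length used. Per kilobase of the principal transcript, BCL2 made up 0.352% to 0.459%, and MCL1 made up 51.4% and 50.3% in shNC and 46.6% and 46.6% in sh812, where BCL2L1 then exceeded it at 53.0% and 52.9%.

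The effectors form the membrane pores through which cytochrome c leaves mitochondria, and 0 of 2 were called with edgeR, DESeq2 or limma-voom. In edgeR, 1 had an unadjusted p under 0.05. BAX, which moves from the cytosol to mitochondria, had 41.6 and 43.9 CPM in shNC and 47.9 and 48.8 in sh812, without overlap. Its log2 fold change was 0.18 (95% interval 0.02 to 0.34; adjusted p = 0.157 in edgeR). BAK1, which sits in the outer membrane, had 58.2 and 63.3 CPM in shNC and 60.3 and 55.7 in sh812, with overlap (log2 fold change -0.07, 95% interval -0.22 to 0.09; adjusted p = 0.654 in edgeR). GGNBP1 overlaps BAK1 on the opposite strand in the annotation. In 8 of the 10 members, all except BCL2 and BBC3, the 95% interval lay within 0.5 of 0 on the log2 scale.

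Summed by role, with all annotated exons as the length, the shares of the family differed little between libraries. These shares, and which groups overlap, can change with the length used. Per kilobase of the principal transcript BAX stood at 53.9 CPM per kb in shNC, against 16.5 with all exons. The shares by role were not computed with that length. The 3 anti-apoptotic genes held 61.9% and 61.1% of the summed level per kb of the 10 members in shNC and 59.6% and 61.0% in sh812. The effectors held 16.7% and 17.1% in shNC and 17.2% and 16.6% in sh812, and the groups overlapped. The 5 BH3-only genes held 21.4% and 21.7% in shNC and 23.2% and 22.4% in sh812. Both sh812 libraries were above both shNC libraries for the BH3-only share and below them for the anti-apoptotic share.

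Count ratios within a library need no scaling factor, and 6 pairs of a pro-apoptotic and an anti-apoptotic member were compared. Each pair holds BAX or MCL1, so the 6 are not independent comparisons. The log2 ratio of BAX to MCL1 was -3.18 and -3.12 in shNC and -2.86 and -2.86 in sh812, a difference of 0.29. The ratio of BCL2L11 to MCL1 was higher in sh812 by 0.19 and that of PMAIP1 to MCL1 by 0.17, in both cases without overlap. The ratio of BAX to BCL2L1 differed by 0.04, also without overlap, with -2.49 and -2.50 in shNC and -2.45 and -2.45 in sh812. The ratio of BAX to BCL2, often quoted as an index of apoptotic priming, overlapped between groups, at 3.92 and 4.33 in shNC and 4.34 and 4.13 in sh812. The ratio of BAK1 to MCL1 also overlapped. The exact permutation test, two-sided, gave p = 0.33 for the 4 ratios without overlap, which is the smallest p that 2 against 2 libraries allow, and 0.667 for the others (adjusted over the 6 ratios, 0.5 and 0.667).

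**Figure D2:**
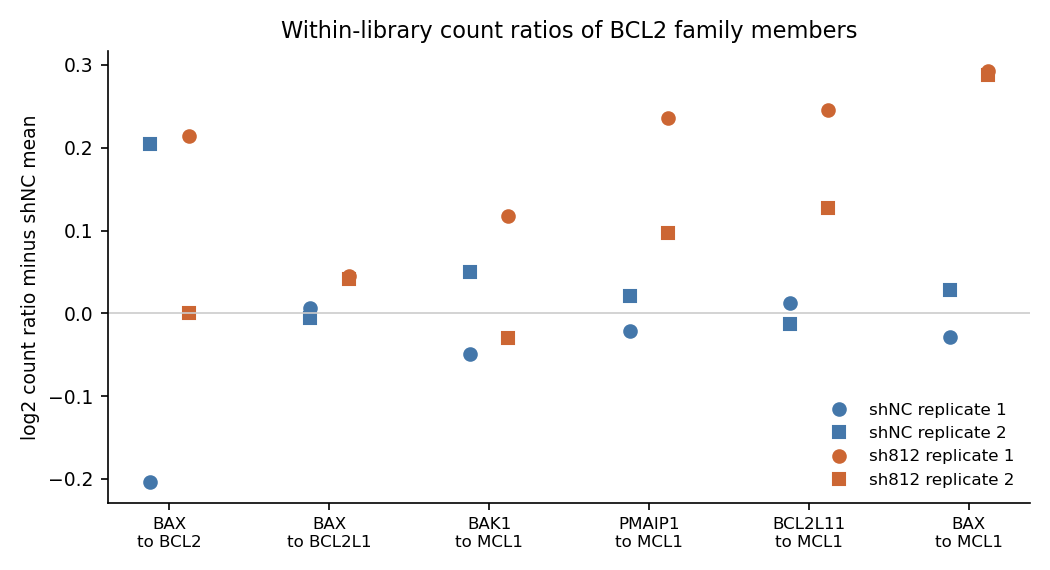
Log2 ratio of the counts of 2 members within each library, minus the mean of the shNC libraries (colours and symbols for group and replicate as in the legend). BAX to MCL1 shows the widest separation, a difference of 0.29 between group means, and BAX to BCL2 overlaps.

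Of 12 other BCL2 family genes, 7 passed the low-count filter and 4 were called, 2 higher and 2 lower (57.1% of those tested, against 10.8% of all tested genes). The 5 that did not pass, BCL2L10, HRK, BCL2L14, BCL2L15 and BCL2L2-PABPN1, had 0 to 12 counts per library. BMF, a BH3-only protein tied to the cytoskeleton, fell from 14.7 and 13.3 CPM in shNC to 9.89 and 7.88 CPM in sh812. Its log2 fold change was -0.66 (SE 0.14, adjusted p = 0.00278 in edgeR). BIK, a BH3-only protein of the endoplasmic reticulum, rose from 3.30 and 5.25 CPM to 6.55 and 6.79 CPM, a fitted log2 change of 0.65 (SE 0.20; edgeR adjusted p = 0.0334). The 2 BH3-only relatives thus changed in opposite directions.

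BCL2A1, an anti-apoptotic gene known as a target of NF-kB, fell from 51.4 and 60.4 CPM in shNC to 43.4 and 44.9 CPM in sh812 (log2 fold change -0.34, SE 0.08, adjusted p = 0.00981 in edgeR). BCL2L12 rose from 68.9 and 75.0 CPM to 87.1 and 90.6 CPM (log2 fold change 0.31, SE 0.07, adjusted p = 0.00559 in edgeR). IRF3 overlaps BCL2L12 on the opposite strand in the annotation. BOK, an effector relative, had 28.6 and 34.6 CPM in shNC and 36.7 and 36.4 in sh812 and did not pass (adjusted p = 0.156 in edgeR). Over the 7 genes the median was -0.0097 on the log2 scale. The call of BIK ended with DESeq2 (adjusted p = 0.140), library size alone (0.0514), the length and GC trend removed (0.0560), either sh812 library left out (0.0808 and 0.118), and without shNC replicate 1 (log2 fold change 0.35, adjusted p = 0.316). BCL2A1 lost its call without shNC replicate 2 (log2 fold change -0.21, adjusted p = 0.0678 in edgeR) and without sh812 replicate 1 (adjusted p = 0.119), and BMF and BCL2L12 without sh812 replicate 2 (0.0782 and 0.124).

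**Figure D3:**
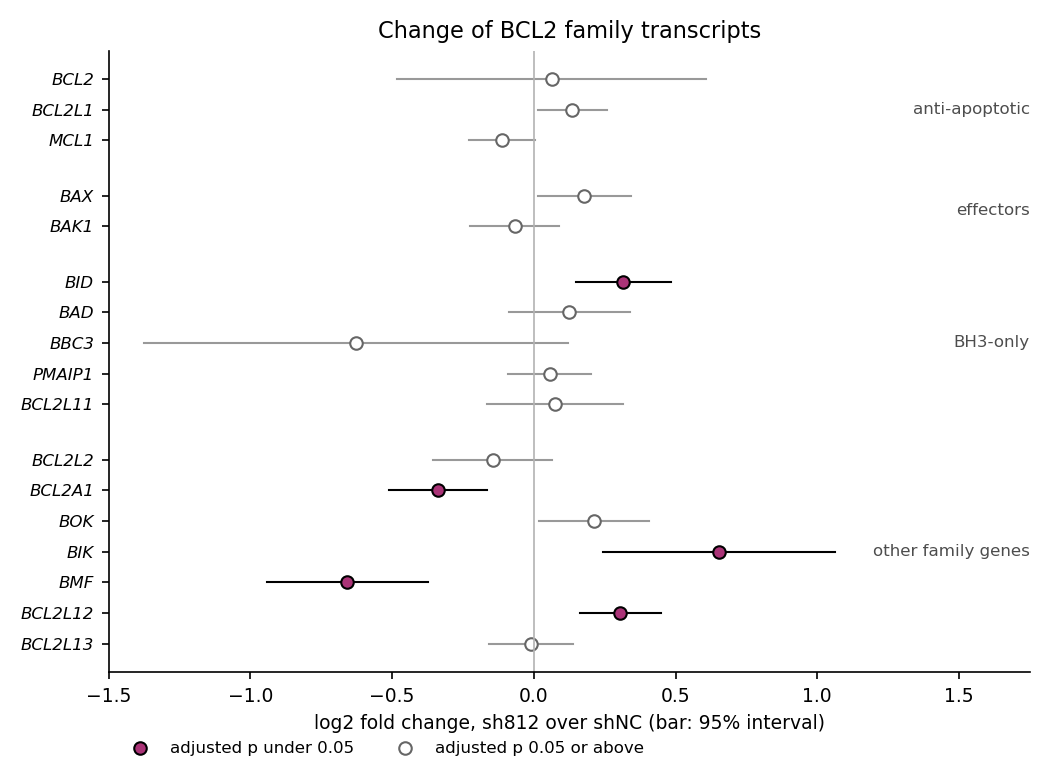
Log2 fold change, sh812 over shNC, with its 95% interval, for the 10 members by role and the 7 other family genes tested; filled points have an adjusted p under 0.05. BID (0.32) is the filled point among the members, and BMF (-0.66) and BIK (0.65) are the farthest from 0 among the filled points.

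Downstream and alongside the family, 32 of 33 other apoptosis genes were tested and 6 were called (18.8%, against 10.8% of all tested genes), 3 higher and 3 lower. The 3 higher genes encode proteins of mitochondria. CYCS, which encodes cytochrome c, rose from 447 and 476 CPM to 543 and 519 CPM (log2 fold change 0.20, SE 0.06, adjusted p = 0.0241 in edgeR). VDAC1 and VDAC3, channels of the outer mitochondrial membrane, rose by log2 0.21 and 0.26 (edgeR adjusted p-values 0.0175 and 0.00986). CYCS and the VDAC genes have many processed pseudogenes, which could take reads from them.

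XIAP, a direct inhibitor of caspases, fell from 41.4 and 40.3 CPM to 34.2 and 33.4 CPM (log2 fold change -0.27, SE 0.08, adjusted p = 0.0346 in edgeR). BIRC2, which encodes the ubiquitin ligase cIAP1, had a log2 fold change of -0.19 (adjusted p = 0.0409 in edgeR). TNFRSF10B, a receptor for the death ligand TRAIL, had one of -0.18 (adjusted p = 0.0495 in edgeR). RHOBTB2 overlaps TNFRSF10B on the opposite strand in the annotation. The calls of XIAP, BIRC2 and TNFRSF10B ended with the trend of each library on transcript length and GC content removed (adjusted p = 0.147, 0.0666 and 0.0902 in edgeR) and without shNC replicate 1 (0.0713, 0.0936 and 0.0739). DESeq2 ended the calls of XIAP (adjusted p = 0.0840) and TNFRSF10B (0.0540), and DESeq2's size factors in edgeR those of BIRC2 (0.05004) and TNFRSF10B (0.0585). TNFRSF10B also lost its call with the replicate block (0.0503) and without a filter on low counts (0.05001), and CYCS with library size alone (0.0552).

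Of the 7 caspases 0 were called with edgeR, DESeq2 or limma-voom, and 1 had an unadjusted p under 0.05 in edgeR. CASP2, the most abundant of them, had a log2 fold change of 0.08 (adjusted p = 0.558 in edgeR). Over the 32 genes the median was 0.076 on the log2 scale, or 0.031 with library size alone. The calls of this list were lost without sh812 replicate 1 and without sh812 replicate 2, in fits that also called fewer of all tested genes. The median of the 32 genes was then 0.090 and 0.054, against -0.0117 and -0.0119 for all tested genes.

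**Figure D4:**
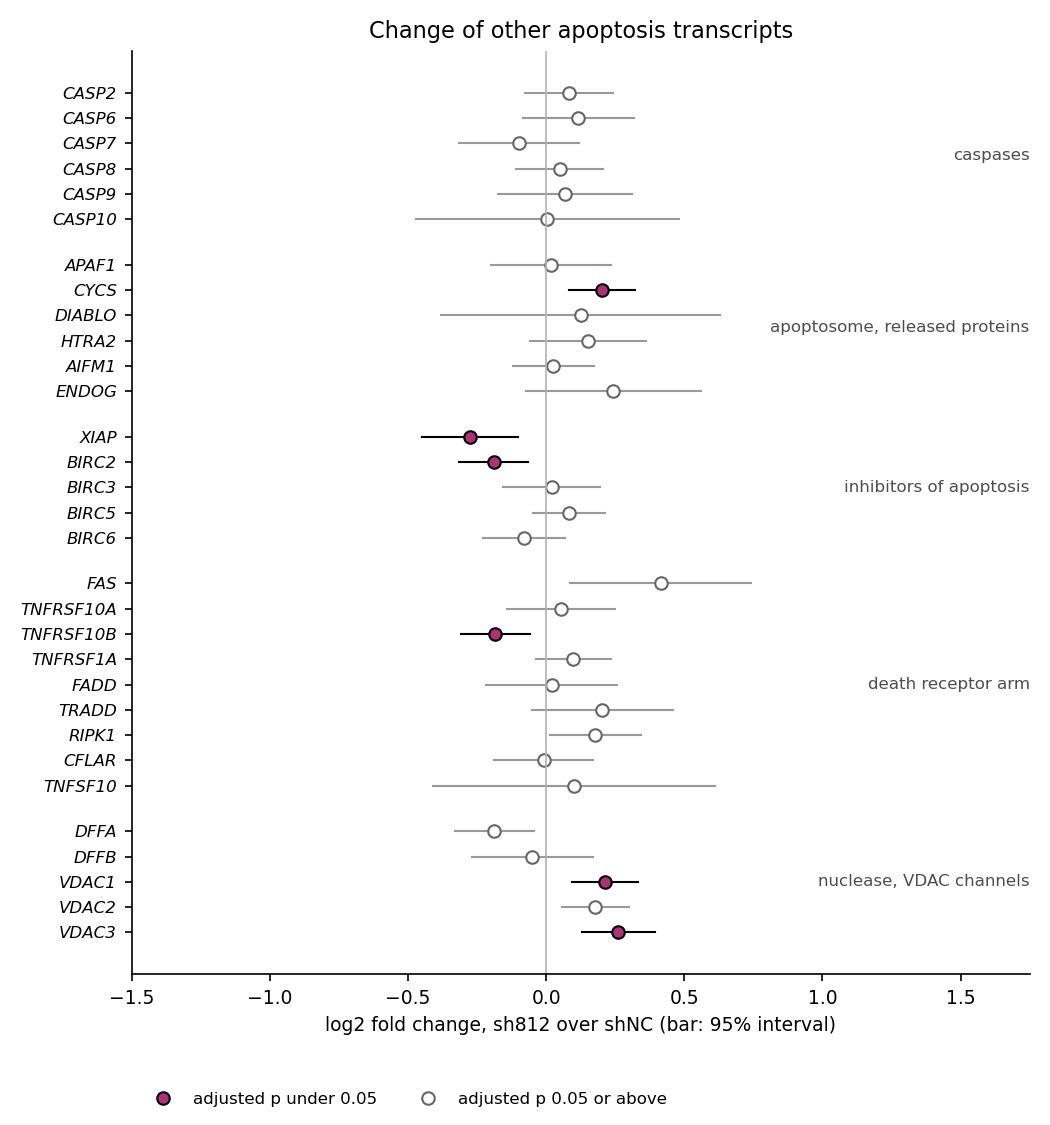
Log2 fold change, sh812 over shNC, with its 95% interval, for the other apoptosis genes tested and reported here, by role; filled points have an adjusted p under 0.05. CYCS, VDAC1 and VDAC3 lie to the right of 0 and XIAP, BIRC2 and TNFRSF10B to the left, from -0.27 for XIAP to 0.26 for VDAC3.

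Regulators of the members made up the last list. Of 23 genes known to induce BH3-only genes, to control MCL1 turnover or to phosphorylate family proteins, 21 were tested and 1 was called (4.76%, against 10.8% of all tested genes). RUNX3, a transcription factor linked to BCL2L11 induction, had 204 and 122 counts in shNC and 88 and 94 in sh812. Its log2 fold change was -0.85 (SE 0.23, adjusted p = 0.0160 in edgeR). DESeq2 called 0 of the genes in this list, against 1307 of the 11764 genes with an adjusted p there. At an unadjusted p under 0.05 in DESeq2 there were 4 genes of the list, against 2954 over all genes. The RUNX3 value was -0.59 without shNC replicate 1 (adjusted p = 0.184 in edgeR) and -0.82 without sh812 replicate 1 (0.0821). HUWE1, a ubiquitin ligase for MCL1, had 412 and 352 CPM in shNC and 355 and 338 in sh812 (adjusted p = 0.182 in edgeR). GSK3B, a kinase that marks MCL1 for degradation, had a log2 fold change of -0.04 (adjusted p = 0.770 in edgeR).

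METTL3 acts on short motifs, of which GGACT in DNA letters is a common form, with methylation known to cluster near stop codons. GGACT was searched on the coding strand only, within the coding sequence. The bases after the stop codon were not searched. Within the last 150 coding bases it was present in 4 of the 10 members, namely MCL1, BID, BAD and BBC3, against 16.8% of 13199 tested genes with such a window. Anywhere in the coding sequence it was present in 6 of the 10 members, against 75.1% of 13210 tested genes. The last 60 coding bases are shown for the genes that hold it there, with the motif in capitals.
BID: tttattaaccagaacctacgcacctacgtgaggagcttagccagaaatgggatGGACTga
BBC3: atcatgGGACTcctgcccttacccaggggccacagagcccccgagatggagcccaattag
BCL2L12: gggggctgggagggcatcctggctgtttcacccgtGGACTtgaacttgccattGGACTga
In BID and BCL2L12 the motif runs into the stop codon, and in BBC3 it does not. How many of all tested genes have the motif at the stop codon was not counted. MCL1, BAD and, among the other family genes, BOK hold the motif farther upstream within the last 150 coding bases. Like BBC3, these genes did not pass the test. BMF, BIK and BCL2A1, which were called, have no GGACT within the last 150 coding bases. No m6A measurement was analysed here, so a motif is a description of the sequence and not a methylated site.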

How the data were processed

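Poly(A) RNA of 4 PC3 libraries (2 shNC, 2 sh812) was analysed from the raw counts per gene that the authors deposited. The submitters' processing notes name fastp, STAR 2.7.1a, featureCounts and DESeq2 and build hg38, with no role or order. The annotation release, the use of strand and the counted unit (read or pair) are not given in the sources used here.

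Counts were fitted with edgeR 4.0.16 in R 4.3.3 (filterByExpr, TMM, glmQLFit and glmQLFTest, prior count 0.125, no covariate), with Benjamini-Hochberg adjustment over all 16802 genes tested and a threshold of 0.05. The SE comes from the F statistic, and 95% intervals are per gene. DESeq2 1.42.0, limma-voom (limma 3.58.1), other scalings and filters, the replicate block, removal of length and GC trends, and each library left out were tried. A prior count of 2 was also tried for the members. Lengths and positions come from GENCODE 29, matched by Ensembl identifier. Library pairs differed by more than sampling noise, with a chi-square per gene of 8.43 (shNC) and 4.51 (sh812).

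Members and lists were chosen with earlier results of these data known. Named are all members, METTL3, called genes of the other lists, the most abundant gene of a role without a call, and KLK3. Other genes covered by this rule are not reported here. On simulated counts with 16321 genes tested, 18.2%, 59% and 71.9% of genes changed by log2 0.25, 0.5 and 1 were called, with 8 false calls among 102.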

Additional observations from a re-analysis of the deposited data

How the results depend on the processing

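All alternatives but the principal transcript length, which was chosen after seeing the data, were planned. BID kept its call in each of the 10 that used all libraries (log2 fold change 0.27 to 0.32, adjusted p 0.00828 to 0.0367). These 10 include a prior count of 2, which moves the fitted change but cannot move the p (adjusted p 0.0125 in edgeR, as in the main fit). METTL3 ran from -2.47 to -2.42 over 9 alternatives. The 9 members other than BCL2 kept their sign throughout, some only by a small margin. BAK1 was at -0.00024 without shNC replicate 2, PMAIP1 at 0.0034 without sh812 replicate 1 and BAD at 0.013 without shNC replicate 1. Leaving out shNC replicate 2 or sh812 replicate 2 turned BCL2 to -0.082 or -0.064 (0.24 without shNC replicate 1). With the length and GC trend removed, 3 other apoptosis genes were called against 6. Over all 16802 tested genes that setting called 1760, against 1822. For the regulators, 4 were called with library size alone, 2 at a mean CPM of at least 1 and 0 with DESeq2, against 1. Over all genes these settings called 1889 of 16802, 2026 of 13517 and 1307 of 11764. Library size alone gave 561 genes higher and 1328 lower over all tested genes, against 912 and 910. The cause was not tested.

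Fits without 1 library assume that the lone sample varies like the other group, and have 1 residual degree of freedom. They called 587 to 3252 of all tested genes, 0 to 2 members, 1 to 4 other family genes, 0 to 11 other apoptosis genes and 0 to 6 regulators; BID ran from 0.25 to 0.38. The BAX to BCL2 difference was -0.097 with shNC replicate 1 left out and 0.31 with shNC replicate 2 left out. That of BAK1 to MCL1 turned to -0.0054 without shNC replicate 1 and -0.030 without sh812 replicate 1, and reached 0.12 without sh812 replicate 2.

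The labels give both groups replicates 1 and 2 without saying that a number marks a batch, and libraries with the same number deviated with a Pearson r of 0.0278 over genes. Fitting the number as a replicate block called 2001 genes (1003 higher, 998 lower), among them 1 member, 4 other family genes, 5 other apoptosis genes and 1 regulator. At 2 libraries per group, 18.2% of genes changed by log2 0.25 were called in simulated data. Those data gave 102 calls among 16321 genes, against 1822 among 16802 here. The adjusted threshold was thus stricter in the simulation, and its rate may not carry over.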
